A study of Luscinia megarhynchos and Luscinia luscinia with 4 samples.

Results

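SLC26A9 belongs to the SLC26 family of anion transporters, and its protein carries chloride across the membrane of epithelial cells, where in mammals it is best known from the stomach and the airways. In both nightingale species studied here a copy of the gene lies on the germline-restricted chromosome (GRC), a chromosome that songbirds keep in germ cells and eliminate from all somatic cells. The GRC is usually passed on by the mother and is expelled during spermatogenesis in males, and a gonad is a mixture of germ cells with the chromosome and somatic cells without it. GRC genes were copied from the ordinary chromosomes (the A chromosomes), where the flycatcher gene that names these rows also lies.

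The rows described here are those with the symbol SLC26A9 in the deposited expression table, and they were chosen because the gene is among the highest in both ovaries. There are 2 of them among 799 rows, named by the collared flycatcher proteins XP_005059232 and XP_016159737. The table holds 4 libraries: the ovary of an adult female and the testis of an adult male of the common nightingale (*L. megarhynchos*), and the same of the thrush nightingale (*L. luscinia*). The birds were wild, caught in the breeding season, and each library came from a different bird. The ordinary chromosomes to which reads were aligned had been assembled from the same females whose ovaries were sequenced. Each combination of species and tissue was 1 library, so replicate error is unknown, and no difference was tested. Every interval below is an exact 95% interval for counting error and does not cover birds, and tissue, sex and bird cannot be told apart. The unit is FPKM, a read count normalised for gene length and library size, from mRNA selected by its poly(A) tail. The RNA had been treated with DNase, and the labels of all 4 samples name it DNA depleted mRNA. The study advised against comparing FPKM between data sets, as the share of cells with a GRC was unknown. The ratios between libraries below describe the listed values under that limit. The study's notes name the length on the GRC as the divisor, whereas the deposited values came out as reads over the full coding length, multiplied by how complete the gene is on the GRC.

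For XP_005059232 and the other genes in the study's list of 192 GRC genes, the whole reads behind each FPKM could be recovered. The library sizes behind the FPKM, recovered from the same values, lay between 35404629 and 57644189 reads. Of the 192 listed genes, 160 were found on the common nightingale GRC and 117 on the thrush nightingale GRC. A listed gene not found on the GRC of a species was at 0 in both libraries of that species. Ovaries and testes could not be checked against the defining genes of their cells: of the lists for oocytes (10 genes), ovarian somatic cells (5), stomach and airway (6) and red blood cells (4) none had a row in this table of GRC genes, and of 11 meiotic and testis genes 5 had one. Of these, 4 had reads, some of them few, and each had more in the ovary than in the testis of every species in which it had any. Over all rows above 0 in either library, 13.1% of 267 in the common nightingale and 12.8% of 180 in the thrush nightingale were higher in the ovary. This counts differences of at least 2-fold on log2(FPKM + 0.1), and 16.5% and 16.1% were higher in the testis. The reads are not corrected for library size. XP_005059232, which was chosen for its ovary level, also had more reads in the ovary, as given below. For the 5 meiotic and testis genes, reads are given in the order common nightingale ovary, thrush nightingale ovary, common nightingale testis and thrush nightingale testis. They were 54, 12, 1 and 0 for the synaptonemal complex gene SYCP1 and 182, 0, 2 and 0 for its partner SYCE3. They were 15, 15, 0 and 0 for the testis transcription factor DMRT1, 0, 39, 0 and 5 for the recombination gene RNF212B, and 0 in every library for TEX12.

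XP_005059232 was high in both ovaries and close to absent from both testes. It had 86.6 FPKM in the common nightingale ovary and 19.8 FPKM in the thrush nightingale ovary, against 0.00994 FPKM in the common nightingale testis and 0.0990 FPKM in the thrush nightingale testis. These values rest on 14192 reads in the common nightingale ovary (interval 13959 to 14427) and 1763 in the thrush nightingale ovary (1682 to 1847). In the testes they rest on 1 read in the common nightingale (0.0253 to 5.57) and 12 reads in the thrush nightingale (6.20 to 20.96). The order of the levels was therefore the common nightingale ovary, the thrush nightingale ovary, the thrush nightingale testis and the common nightingale testis. As reads normalised for library size alone (RPM), the levels were 246.2 in the common nightingale ovary (242.2 to 250.3), 48.1 in the thrush nightingale ovary (45.9 to 50.4), 0.0282 in the common nightingale testis (0.000715 to 0.157) and 0.240 in the thrush nightingale testis (0.124 to 0.419). The intervals of the ovaries lay apart from each other and from those of the testes, and the intervals of the testes overlapped.

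**Figure D1:**
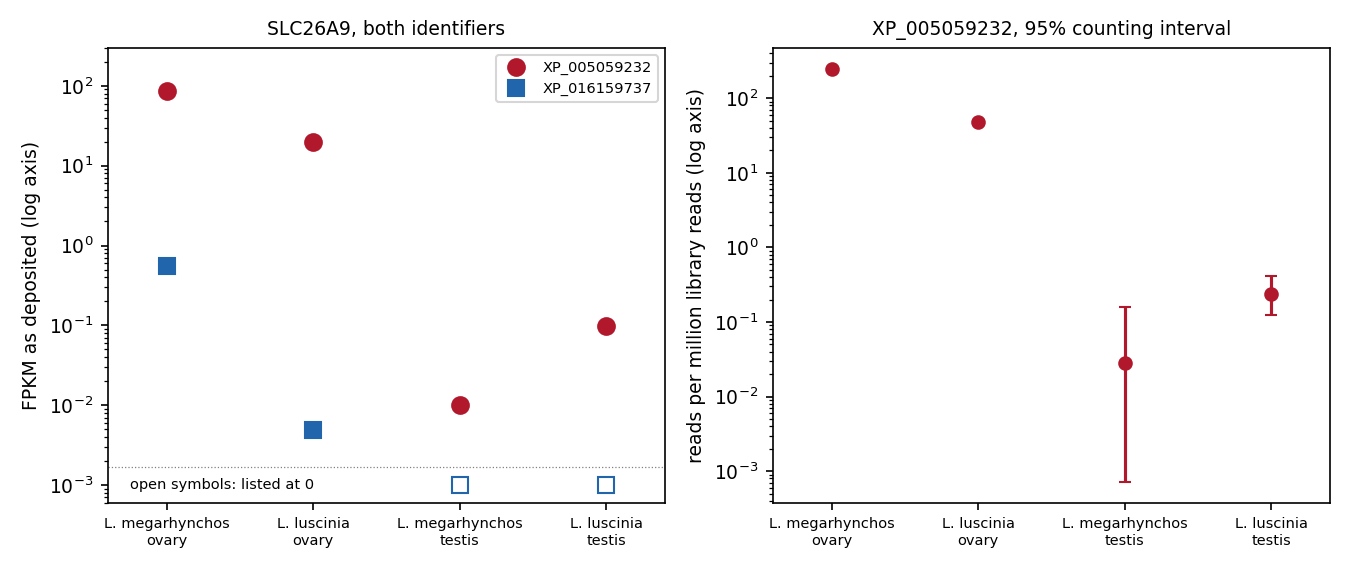
Levels of SLC26A9 in the 4 libraries, 1 bird each. The left panel gives FPKM as deposited for both identifiers on a log axis, with open symbols for values listed at 0, and the right panel gives XP_005059232 as RPM with exact 95% counting intervals. XP_005059232 reached 86.6 and 19.8 FPKM in the ovaries and stayed below 0.1 FPKM in the testes.

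The same read numbers followed from the deposited values without any gene length. Within a species, the ratio of ovary to testis FPKM of a gene is a ratio of whole reads times the ratio of the library sizes. Of the 114 rows above 0 in both common nightingale libraries, 64 fell on ratios of small whole numbers (up to 30 reads, with the ovary number within 0.0002 of a whole one) once the testis library was taken as 0.614 times as deep as the ovary library. In the thrush nightingale this held for 54 of 95 rows with a factor of 1.36. The smallest whole numbers that gave the ratio of XP_005059232 were then 14192 to 1 in the common nightingale and 1763 to 12 in the thrush nightingale, 0.000674 and 0.000274 reads away from whole.

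Reads of XP_005059232 took up a large share of all reads on the 192 GRC genes in the ovaries and almost none in the testes. The share was 28.3% in the common nightingale ovary (27.9% to 28.7%, of 50088 reads) and 16.6% in the thrush nightingale ovary (15.9% to 17.3%, of 10627 reads). It was 0.0111% in the common nightingale testis (0.000281% to 0.0618%, of 9009 reads) and 0.0462% in the thrush nightingale testis (0.0239% to 0.0807%, of 25975 reads). By number of reads among the 192 listed genes it ranked 1 in the common nightingale ovary, 2 in the thrush nightingale ovary, 76 in the common nightingale testis and 38 in the thrush nightingale testis. The other 607 rows have no recovered reads and no place in these ranks. No other listed gene had more reads in the common nightingale ovary, where the next was LOC101808355 with 7519, and in the thrush nightingale ovary the augmin subunit HAUS6 had 2739.

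By FPKM, XP_005059232 ranked 3 among all rows in the common nightingale ovary, below the growth factor IGF2 (134.9 FPKM) and LOC101808355 (115.3 FPKM), and a gap separated it from the rows that followed. These were ALG13, part of the enzyme that adds the second sugar in N-glycosylation, with 27.2 FPKM, the mRNA-binding regulator CPEB1 with 22.9 FPKM and the ubiquitin ligase subunit FBXO11 with 19.2 FPKM. In the thrush nightingale ovary it ranked 2, between HAUS6 (26.2 FPKM) and FBXO11 (15.3 FPKM), with the tendon transcription factor SCX at 12.7 FPKM and CPEB1 at 11.8 FPKM next. It made up 17.1% of the FPKM summed over all rows in the common nightingale ovary and 16.0% in the thrush nightingale ovary. The median of the rows above 0 was 0.0169 FPKM in the common nightingale ovary and 0.0209 FPKM in the thrush nightingale ovary. These ranks chose the gene and describe it only.

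In the testes, which the choice of the gene did not use, XP_005059232 lay among rows of few reads. It ranked 117 of the 183 rows above 0 in the common nightingale, next to SYCP1 (0.0110 FPKM, 1 read), FBXO11 (0.01002 FPKM, 1 read) and the RNA-binding gene LARP4 (XP_005062131, 0.00874 FPKM, 1 read). In the thrush nightingale it ranked 47 of the 135 rows above 0, between another LARP4 identifier (XP_016160800, 0.103 FPKM, 40 reads) and LOC107603884 (0.0968 FPKM, 13 reads), and near the meiotic recombination gene RNF212B (0.121 FPKM, 5 reads). A level of 1 read cannot be told from its neighbours.

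XP_005059232 was higher in the ovary than in the testis of each species. In the ovary RPM was 8717-fold higher in the common nightingale (exact conditional interval 1564 to 344312) and 200.4-fold higher in the thrush nightingale (114.4 to 388.5). The ratio in the common nightingale was 43.5 times that in the thrush nightingale with the deposited scale, 43.2 times with median ratio scaling and 6.63 times with each library scaled to its summed FPKM. It rests on 1 read in the common nightingale testis. Whether the species differ in this ratio was not tested. On the log2(FPKM + 0.1) scale, which understates differences of low values, the ovary exceeded the testis by 9.62 in the common nightingale and by 6.65 in the thrush nightingale. Among the rows above 0 in at least 1 of the libraries compared, this difference was the second of 267 in the common nightingale, after IGF2 (10.40). In the thrush nightingale it was the fourth of 180, after FBXO11 (6.97), CPEB1 (6.89) and SCX (6.85). The median difference over all these rows was near 0 in both species (-0.00122 and -0.00404).

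**Figure D2:**
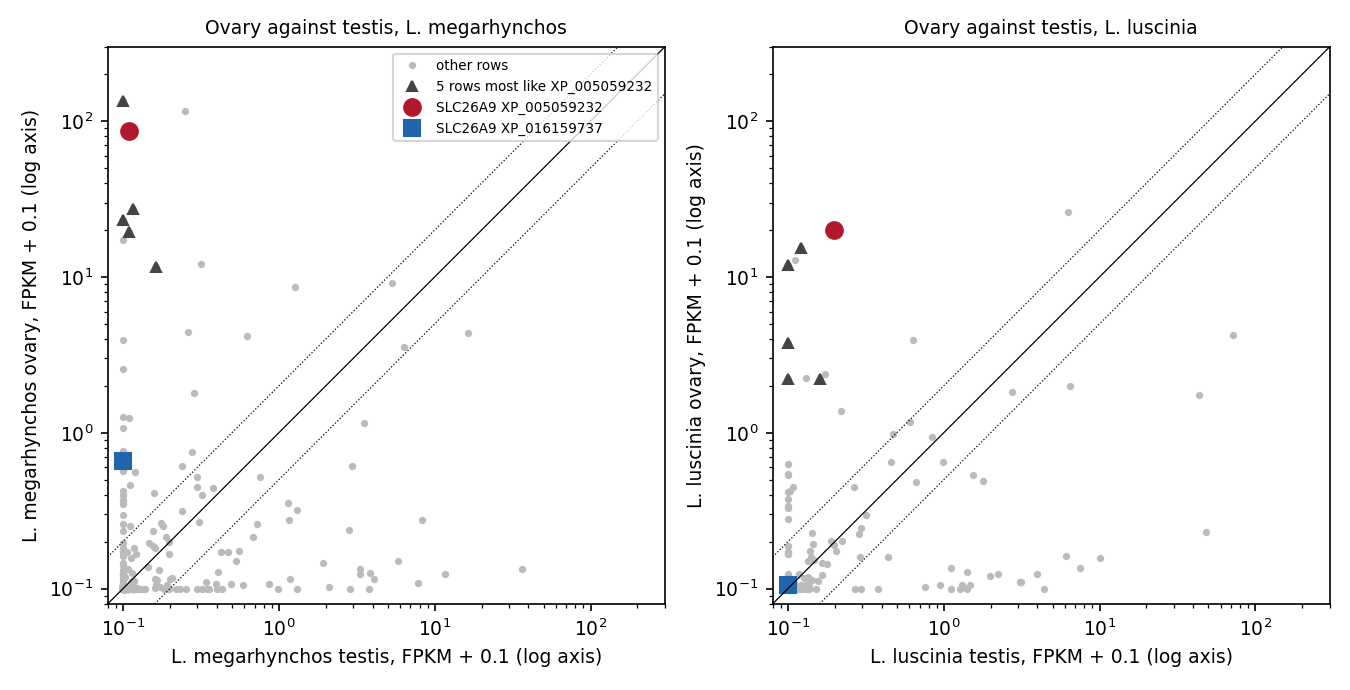
FPKM + 0.1 in the ovary (vertical log axis) against the testis (horizontal log axis) of the common nightingale (left) and the thrush nightingale (right), 1 point per row of the table. The solid line marks equal values and the dotted lines a 2-fold difference. XP_005059232 lies far above the lines in both panels, by 9.62 and 6.65 on the log2 scale. The 5 rows most like it, which were picked by these same values, lie above the lines as well.

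A difference of at least 2-fold on this scale in favour of the ovary was found for 13.1% of 267 rows in the common nightingale and for 12.8% of 180 rows in the thrush nightingale. Both SLC26A9 rows were among them in the common nightingale, and XP_005059232 alone in the thrush nightingale. With a pseudocount of 1 the difference of XP_016159737 in the common nightingale was 0.64 on the log2 scale, below 2-fold. Counted over only the rows with at least 0.1 FPKM in either library, the shares in favour of the ovary were 37.2% of 94 rows and 34.3% of 67 rows. The ovary level is what the gene was chosen for, so these counts are a description. Differences of this size in favour of the testis were found for 16.5% of rows in the common nightingale and 16.1% in the thrush nightingale, and neither SLC26A9 row was among them. The numbers of rows were 35 (ovary) and 44 (testis) in the common nightingale, and 23 (ovary) and 29 (testis) in the thrush nightingale. With each library scaled to its own summed FPKM the same counts were 28 and 58 in the common nightingale, and 35 and 27 in the thrush nightingale. XP_005059232 was then 2612-fold higher in the ovary in the common nightingale and 393.8-fold higher in the thrush nightingale. With median ratio scaling it was 16283-fold higher in the common nightingale and 377.2-fold higher in the thrush nightingale. The share of cells that carried a GRC was not measured in any library, so fewer such cells in a gonad and less RNA per cell cannot be told apart. The reads that mapped equally well to the A chromosomes had been left out, and whether reads of the A-chromosomal SLC26A9 were placed on the GRC was not tested.

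Between the species, XP_005059232 was higher in the common nightingale than in the thrush nightingale in the ovary and lower in the testis. The share of cells with a GRC was not measured in either species, so a difference in that share and in RNA per cell cannot be told apart. In the ovary, FPKM was 4.37-fold higher in the common nightingale, and RPM was 5.12-fold higher (4.87 to 5.38). In the testis, 1 read stood against 12, and RPM in the common nightingale was 0.118 times that in the thrush nightingale (0.00275 to 0.795), so that the interval of this ratio lay below 1. On the log2(FPKM + 0.1) scale the difference, the common nightingale minus the thrush nightingale, was 2.12 in the ovary and -0.86 in the testis. A difference of 2-fold or more on this scale was found in favour of the common nightingale for 15.3% of 275 rows in the ovary, XP_005059232 and XP_016159737 among them, and in favour of the thrush nightingale for 8.36%. For XP_016159737 this was lost with a pseudocount of 1 (0.63), and over the rows with at least 0.1 FPKM the share in favour of the common nightingale was 54.5% of 77 rows. In the testis it was found in favour of the common nightingale for 15.8% and in favour of the thrush nightingale for 12.4% of 259 rows, and SLC26A9 was in neither set. In the ovary the difference of XP_005059232 was exceeded by 25 rows, among them LOC101808355 (10.17), the synaptonemal complex gene SYCE3 (6.93), IGF2 (5.93) and XP_016159737 (2.64), and its direction was that of 42 rows against 23 in the other. LOC101808355 and SYCE3 were at 0 in the thrush nightingale ovary. A gene not found on the GRC of a species was at 0 there, so the counts and shares between species mix absence from a GRC with differences of level. With summed FPKM as the scale these counts became 25 and 38.

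**Figure D3:**
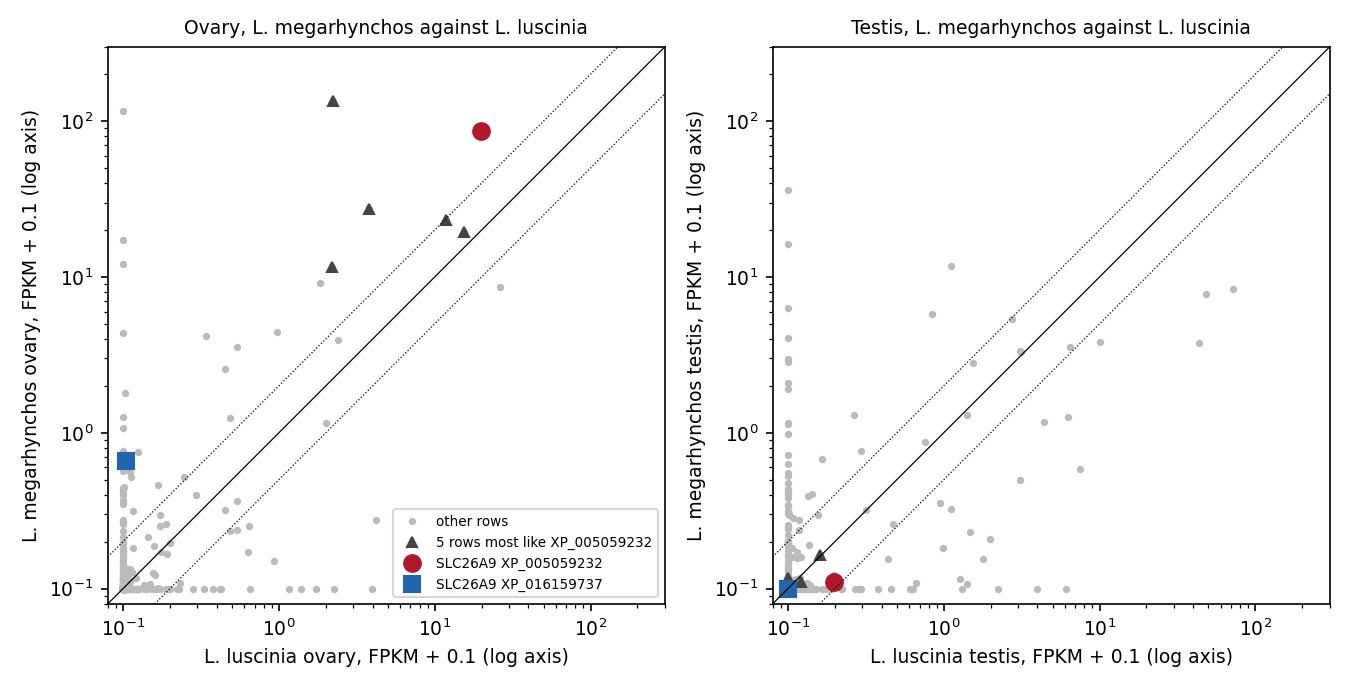
FPKM + 0.1 in the common nightingale (vertical log axis) against the thrush nightingale (horizontal log axis) in the ovary (left) and the testis (right), 1 point per row, with lines for equal values and 2-fold differences. XP_005059232 is above the 2-fold line in the ovary (2.12 on the log2 scale) and between the lines in the testis (-0.86).

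The size of the species difference in the ovary, and its direction, depended on what the reads were divided by. Divided by the bases of SLC26A9 found on each GRC, the level in the common nightingale ovary was 5.998 times that in the thrush nightingale ovary. As a share of the summed FPKM of the library the ratio was 1.07, and after scaling by the median ratio of the 41 rows above 0 in all libraries it was 2.704. Copy number on the GRC was estimated from the DNA coverage of testes in 3 males of each species, which were other birds than those whose RNA was sequenced. FPKM per copy in the ovary was 0.347 times that of the thrush nightingale in the common nightingale, and 0.198 to 0.491 times over the 9 pairs of males. In the testis all these ratios stayed below 1, between 0.00797 per copy and 0.162 as a share of the summed FPKM. The number of copies in the birds used for RNA, and which copies gave the reads, was not tested. The reads of each species were placed on its own GRC assembly, and whether this changed which reads were kept was not tested.

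**Figure D4:**
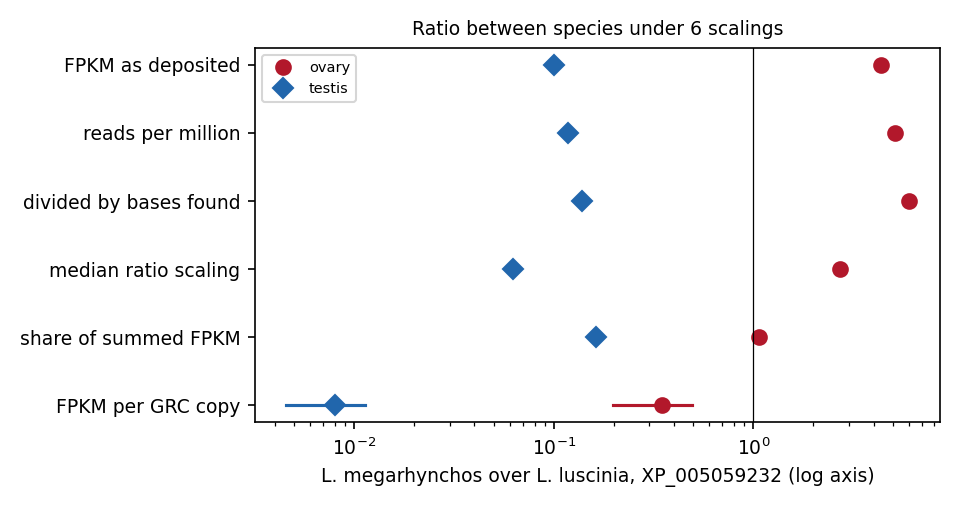
Ratio of XP_005059232 in the common nightingale over the thrush nightingale under 6 scalings, on a log axis, with the ovary as circles and the testis as diamonds. The vertical line marks a ratio of 1, and the bars on the lowest row span the 9 pairs of males used for copy number. The ovary ratio lay between 1.07 and 5.998 for the upper 5 scalings and at 0.347 per GRC copy, while the testis ratio stayed below 1.

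The second identifier, XP_016159737, comes from the coding sequence just before XP_005059232 in the numbering of the flycatcher annotation, and whether the 2 rows are isoforms, and how reads were divided between them, is not given in the sources used here. It was above 0 in the ovaries alone, with 0.556 FPKM in the common nightingale and 0.00490 FPKM in the thrush nightingale, and it was listed at 0 in both testes. In the ovaries it had the species order of the main identifier, at a far lower level. XP_005059232 was 155.9 times as high in the common nightingale ovary and 4049 times as high in the thrush nightingale ovary, so the second identifier made up 0.637% and 0.0247% of the FPKM of both rows together. It ranked 25 in the common nightingale ovary, beside SAXO1 (0.512 FPKM) and PSMD4, a subunit of the proteasome (0.665 FPKM), and 99 in the thrush nightingale ovary. Between the ovaries it was 113.4-fold higher in the common nightingale by FPKM. The study listed only genes with a minimum share of their coding region found on a GRC, and XP_016159737 was not in that list. Its completeness was therefore not given, and its reads could not be recovered. If its FPKM was multiplied by a low completeness, the ratios to XP_005059232 are not ratios of reads, which was not tested. Listed genes at its level in the thrush nightingale ovary had 1 read (SLCO1C1, 0.00498 FPKM) and 2 reads (LOC101808449, 0.00533 FPKM). Its own reads cannot be taken from these.

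Across the 4 libraries, the rows whose levels were closest to those of XP_005059232 were CPEB1, FBXO11, ALG13, IGF2 and PIAS1. Likeness was measured as the Euclidean distance of log2(FPKM + 0.1) over 4 libraries, among 798 other rows, and was 2.28, 2.31, 3.08, 3.39 and 4.35. These rows were picked by the values described here, so a pattern shared with XP_005059232 follows from the choice. CPEB1, which controls the polyadenylation and translation of stored mRNA in oocytes, had 1824 reads in the common nightingale ovary and 594 in the thrush nightingale ovary, and 0 in both testes. FBXO11 had 3123 reads in the common nightingale ovary and 1500 in the thrush nightingale ovary, against 1 and 3 in the testes of these species. Like SLC26A9, it had many reads in the ovaries and few in the testes. ALG13 had 5431 and 718 reads in the ovaries and 2 and 0 in the testes of the common nightingale and the thrush nightingale. For IGF2 the reads were 6291 and 350 in the ovaries and 0 and 0 in the testes, in the same order of species. PIAS1, a ligase that attaches SUMO to proteins, had 1472 and 203 reads in the ovaries, with 5 and 8 in the testes. Each of these genes was higher in the common nightingale than in the thrush nightingale ovary by FPKM, with CPEB1 at 22.9 against 11.8 FPKM and FBXO11 at 19.2 against 15.3 FPKM. With summed FPKM as the scale CPEB1 and FBXO11 turned to 0.478 and 0.309 times the thrush nightingale level, and with median ratio scaling FBXO11 to 0.780 times, while ALG13, IGF2 and PIAS1 stayed higher under both. The distance of XP_016159737 was 10.39, which placed it 32 in this order.

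XP_005059232 was chosen for its high ovary level, so its place above other rows in the ovaries is a description only. By FPKM it was above every other row with a symbol of ion transport in each of the 4 libraries, in the common nightingale testis with 1 read. Of those other rows, only SLC39A10 and SLCO1C1 (XP_016154482) were in the study's list of GRC genes, which required a minimum share of the coding region. The values of listed genes were multiplied by completeness, and whether a low completeness lowered the unlisted rows was not tested. The list, chosen by symbol, held 22 rows for solute carriers, channels and ion pumps, 20 of them other than SLC26A9, and 13 of these 20 (65%) were at 0 in every library, against 433 of the 797 rows other than SLC26A9 (54.3%). Above 0 were 3 of the 20 in the common nightingale ovary, 3 in the thrush nightingale ovary, 1 in the common nightingale testis and 3 in the thrush nightingale testis. Over all rows the shares above 0 were 24.8% in the common nightingale ovary, 17.5% in the thrush nightingale ovary, 22.9% in the common nightingale testis and 16.9% in the thrush nightingale testis. The highest of the 20 was the zinc importer SLC39A10, with 0.135 FPKM and 63 reads in the common nightingale ovary and no value above 0 elsewhere. The solute carrier SLC45A4 had 0.0179 FPKM in the thrush nightingale ovary and 0.0263 FPKM in the thrush nightingale testis. The thyroid hormone transporter SLCO1C1 (XP_016154482) had 1 read in each thrush nightingale library. SLC2A4RG, whose product is a transcription regulator and no transporter despite its symbol, had 0.00189 FPKM in the thrush nightingale ovary and 0.0153 FPKM in the thrush nightingale testis. SLC45A4, SLCO1C1 and SLC2A4RG were at 0 in both common nightingale libraries. The remaining 3 rows above 0 were the potassium channel KCNN2 (0.000121 FPKM) and ANO8 (0.00105 FPKM) in the common nightingale ovary and the proton pump subunit ATP6V0A4 (0.000145 FPKM) in the common nightingale testis.

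The other genes on the flycatcher sequence record that holds SLC26A9 were far below XP_005059232 in the ovaries. So were most rows of the table, as XP_005059232 was chosen for its ovary level, and this is a description only. The genes on the record are not all close to XP_005059232: GNAT2, GNAI3 and PSMA5 lay 258 to 265 places away in the numbering of coding sequences, and LOC107604199 12 places away. Several, AVPR1B and DYRK3 among them, were not in the study's list of GRC genes. The table held 17 rows from the same flycatcher sequence record, 15 of them other than SLC26A9, and 10 of the 15 (66.7%) were at 0 in all libraries, not far from the 54.3% of all other rows. In the common nightingale ovary 4 of the 15 were above 0: LOC107604199 with 0.325 FPKM and 21 reads, the G protein subunit GNAI3 with 0.250 FPKM and 29 reads, the proteasome subunit PSMA5 with 0.0373 FPKM and 4 reads, and the transducin subunit GNAT2 with 0.0317 FPKM and 6 reads. This is close to the share of all rows above 0 there (24.8%). None of the 15 was above 0 in the thrush nightingale ovary, against 17.5% of all rows. A listed gene not found on the thrush nightingale GRC was at 0 there, and this was not told apart from no expression. In the testes PSMA5 had 0.0456 FPKM and 3 reads in the common nightingale, above XP_005059232 with its 1 read, and the vasopressin receptor AVPR1B had 0.00178 FPKM in the thrush nightingale. Each was the only 1 of the 15 above 0 in that testis, against 22.9% of all rows in the common nightingale and 16.9% in the thrush nightingale. Of the rows nearest by annotation order, LOC101817567, LOC107604214 and the kinase DYRK3 were at 0 throughout, and LOC107604199 and AVPR1B were above 0 in 1 library each.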

How the data were processed

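Reads of 150 bp from 1 end of stranded, poly(A)-selected libraries (4 in all) were trimmed with Trimmomatic 0.39 by the authors. STAR 2.7.9a then placed them on a reference that combined the A chromosomes and the GRC assembly of the same species. Reads with a single best place in a GRC exon entered the table, with exons named after flycatcher coding sequences. How reads were counted, and whether by strand, is not given in the sources used here. Expression was deposited as FPKM for 799 rows, written with decimal commas, 1 column per library. Depth behind each value is given as reads. Coding length, completeness and copy number from the study's gene list entered as inputs and are not reported. Of the 192 listed genes, reads were recovered for those found on the GRC of the species, 160 in the common nightingale and 117 in the thrush nightingale. The tolerance was 0.01 reads (100% of values above 0 were whole), and a test on simulated data for 160 and 117 genes recovered 100%. The other listed genes had 0 FPKM in that species and were set to 0 reads. Differences are of log2(FPKM + 0.1) over rows above 0 in either library. Intervals of reads are exact Poisson, of shares Clopper-Pearson, and of ratios conditional binomial, all at 95%. Rows named are SLC26A9, the 5 nearest by distance, 3 on each side in the order of levels and of the annotation, solute carriers above 0, and rows with larger differences, which were chosen after their values were seen. The members and lists were chosen with earlier results of these data known. No genome was used here, so neither coordinates nor sequences are given. Alternatives were pseudocounts, a minimum of 0.1 FPKM, scalings, divisors, summed symbols and the measure of likeness. Python 3.11.15, numpy 2.4.6, pandas 2.3.3, scipy 1.17.1 and matplotlib 3.10.9 were used.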

Additional observations from a re-analysis of the deposited data

Results flagged for a closer look

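The species difference of XP_005059232 had opposite signs in the tissues. On the log2(FPKM + 0.1) scale, the common nightingale minus the thrush nightingale was 2.12 in the ovary and -0.86 in the testis. With 1 bird per species and tissue the difference between the tissues was not tested. The testis value rests on 1 read against 12, and per GRC copy the ovary difference was negative as well.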

How the results depend on the processing

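No paired analysis was possible because each library came from a different bird. Within each of the 2 species the ovary was the higher, and this was not tested. The ovary exceeded the testis, and the thrush nightingale exceeded the common nightingale in the testis, under every alternative run. All alternatives started from the same reads of XP_005059232, 14192 and 1763 in the ovaries and 1 and 12 in the testes. A pseudocount cannot change a sign, so the unchanged directions add no further evidence. The ovary minus testis difference in the common nightingale (9.62) was 12.09 with a pseudocount of 0.01, 6.44 with 1, 8.56 with summed FPKM as the scale, 10.91 as RPM, 10.19 with the bases found as the divisor and, chosen after seeing the data, 13.09 without a pseudocount. In the thrush nightingale (6.65) the same settings but the divisor gave 7.51, 4.24, 7.65, 7.15 and 7.65, and median ratio scaling 7.46. The species difference in the ovary (2.12) was 0.10 with summed FPKM, 1.43 with median ratio scaling, 2.35 as RPM and 2.58 with the bases found. It reversed to -1.50 per GRC copy (-1.53 without a pseudocount, added after seeing the data). In the testis (-0.86) it was -2.45 with a pseudocount of 0.01, -0.12 with 1, -1.41 as RPM, -3.32 without a pseudocount and -6.97 per copy without one. For XP_016159737 the differences between common nightingale tissues and between ovaries (2.71 and 2.64) were 5.82 and 5.25 with 0.01, 0.64 and 0.63 with 1, and 1.93 and 1.79 with summed FPKM. Summed FPKM shifted all rows by -2.03 between the ovaries, 0.69 between the testes, and -1.74 (common nightingale) and 0.97 (thrush nightingale) between the tissues, and median ratio scaling by -0.69, -0.68, 0.90 and 0.91.

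With a pseudocount of 0.01, the rows past 2-fold numbered 60 in favour of the ovary and 71 of the testis in the common nightingale, 43 and 50 in the thrush nightingale, 85 in favour of the common nightingale and 49 of the thrush nightingale in the ovaries, and 83 and 61 in the testes. With 1 they were 17 and 19, 12 (ovary, the thrush nightingale), 15 and 8, and 12 and 17. With a minimum of 0.1 FPKM the counts were as before, over 94, 67, 77 and 84 rows, or 29.9% to 54.5% of them. With summed FPKM they were 35 for the thrush nightingale ovary, and 25 and 38 between the ovaries. The rank in FPKM was 2 in the common nightingale ovary and 4 in the thrush nightingale ovary with the bases found as the divisor, and 83 and 58 in the testes. Without symbols starting with LOC it was 2 in the common nightingale ovary, 44 in its testis and 11 in the thrush nightingale testis. By correlation over the 4 libraries, 2 of the 5 nearest rows were the same (CPEB1 and ALG13), and the others were LOC101808316, IGF1R and ELAVL4 (XP_005050073). Depth limits the testes, where 1 and 12 reads carry every comparison, and the single birds limit all of them.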
